A study of Rattus norvegicus with 6 samples.

Results

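The transcripts described here are those of 10 genes of iron storage, uptake and export, Fth1, Ftl1, Tfrc, Slc40a1, Slc11a2, Hfe, Aco1, Ireb2, Ncoa4 and Hamp, in the renal cortex of rats. They were chosen by name, and every array probe whose accession belongs to one of them was taken, which gave 25 of the 61537 non-control probes and 10 of the 15645 genes named. The treated group held 3 male Sprague-Dawley rats given 4-hydroxy-m-phenylenediammonium dichloride, a salt of 2,4-diaminophenol, at 100 mg/kg/day for 4 weeks. The control group held 3 male rats of the same strain given corn oil for 4 weeks. All animals were bought at 5 weeks of age and ate a basal diet, and no source used here names the compound's vehicle. Each animal had 1 Cy3 array of whole cortex RNA, a mixture of many cell types.

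Cells hold spare iron inside ferritin, a shell built of heavy and light chains. Iron bound to transferrin enters through the transferrin receptor, crosses the endosomal membrane through DMT1 and leaves the cell through ferroportin, which the liver hormone hepcidin removes from the surface. When iron is scarce, the iron regulatory proteins bind elements in the ferritin and transferrin receptor mRNAs, blocking translation of the first and stabilising the second, so part of this control is not visible as a transcript level. In the kidney, tubular cells take up filtered transferrin and return iron to the blood, and in mouse and human cells the ferritin and ferroportin genes are also targets of NRF2, the factor that answers electrophiles.

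Levels are log2 of the probe's signal over the 75th percentile of its array, so they compare animals for 1 probe and not genes with each other. After this scaling the 9 spike-in control probes had a median log2 difference of -0.15, treated minus control. Several differences below are no larger than that, and its cause was not tested. On 61537 probes per array, 68.9% to 69.6% were well above background on treated arrays and 63.1% to 67.7% on control arrays. All treated arrays were on slide 2 (scan 2) and all control arrays on slide 1 (scan 1). Every difference below is therefore one between slides as well as between treatments, and the 2 cannot be told apart. Nqo1, a quinone reductase and sign of electrophile exposure, was 6.58-fold higher in treated cortex (log2 fold change 2.72, SE 0.39, limma adjusted p = 0.031, or 0.045 to 0.104 with 1 array left out). Proximal tubule markers were present on every array, with a summed level of 1575 to 1609 times the 75th percentile in treated and 1638 to 1774 in control animals over 10 of 10 markers. Means were lower in treated animals for 9 of them. Treated animals lay below all controls for 3, where the background was 18.7% of genes. Only Aqp1 was called lower (log2 fold change -0.58, limma adjusted p = 0.034), where 1.33% of all genes were. Control replicate 3 stood apart by its liver transcripts: the 4 hepatocyte markers Alb, Ttr, Apoa1 and Serpina1 summed to 0.797 to 1.58 in treated animals, 0.807 and 0.631 in control replicates 1 and 2, and 24.9 in control replicate 3.

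None of the 10 genes passed the test. With limma and Benjamini-Hochberg adjustment over all 12130 genes tested, 0 of 10 were called, against a background of 4.36% of genes called in either direction (3.03% higher and 1.33% lower). Only 1 member, Ncoa4, had an unadjusted p under 0.05, where the background was 25%. Groups did not overlap for 1 member, again Ncoa4, with treated animals above controls, where the background was 14.1% of genes in that direction, 18.7% in the other and 32.8% in either. Counts of 0 and 1 among 10 genes are too small to be told from these backgrounds. Means were higher in treated animals for 4 genes and lower for 6, with a median log2 fold change of -0.047, beside -0.030 over all genes tested. All 10 genes had a probe well above background on all 6 arrays, so no member was lost to the filter on dim probes. Over the members' 25 probes, 0 were called, where 2.06% of all 21106 probes tested were called higher and 0.914% lower. Treated animals lay above all controls at 5 of the 25 probes, 3 of them of Ftl1, and below them at 0. The backgrounds were 13.1% and 18.6%, or 31.7% in either direction. The first share lay above its background and the second under it, but probes of 1 gene share their target and are not independent.

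**Figure D1:**
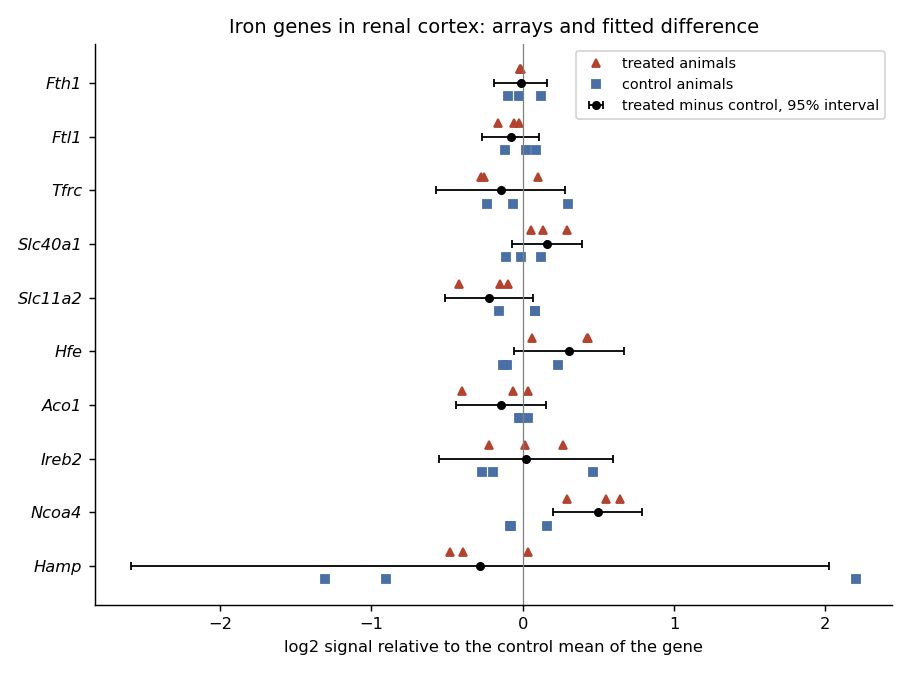
Each row is 1 gene at its brightest probe. The horizontal axis is the log2 signal relative to the control mean of that gene, triangles are the 3 treated animals, squares the 3 control animals, and the black point with bar is the fitted difference of treated minus control with its 95% interval. The interval of Ncoa4, from 0.20 to 0.79, lies above 0 and those of the other genes include 0, with that of Hamp the widest because of 1 control animal at the far right.

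Ferritin transcripts were read by 9 probes. Fth1 encodes the heavy chain, whose ferroxidase centre oxidises iron for storage. At its brightest probe its log2 levels were 8.70, 8.71 and 8.70 in treated animals, against 8.84, 8.62 and 8.69 in control animals. The treated values lay inside the control range, and the difference was -0.014 (95% interval -0.19 to 0.16, limma adjusted p = 0.929). The other 3 Fth1 probes had log2 fold changes of 0.12, 0.12 and 0.30, all with overlapping groups and none called.

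Ftl1 encodes the light chain, which helps the iron core to form. At its brightest probe the log2 levels were 9.07, 9.18 and 9.21 in treated animals, against 9.25, 9.12 and 9.32 in control animals, a difference of -0.080 (95% interval -0.27 to 0.11, adjusted p = 0.560). The groups overlapped there. A dimmer probe, A_42_P541032, read 7.89, 8.11 and 8.48 in treated animals, against 7.81, 7.66 and 7.79 in control animals, and every treated value was above every control value. Its signal was 1.32-fold that of controls, which did not pass (log2 fold change 0.41, SE 0.16, adjusted p = 0.191 in the fit over 21106 probes). The probes A_42_P541034 and A_44_P114869 showed the same separation, with log2 fold changes of 0.31 and 0.28 and adjusted p of 0.152 and 0.224, and the fifth, A_44_P149188, had 0.089 with overlapping groups. Such separation occurred at 13.1% of all probes tested, and the 5 Ftl1 probes share their target.

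The Ftl1 probes with the highest and the lowest log2 fold change were set against each other as a description. No p-value is given, since the pair was chosen for that difference. The log2 difference between A_42_P541032 and the brightest probe of the same array was -1.18, -1.07 and -0.73 in treated animals, against -1.44, -1.45 and -1.53 in control animals. Its mean was 0.49 higher in treated animals. The brightest Ftl1 and Fth1 probes had raw median signals of up to 530153 and 445719, where the scanner files give a saturation value of 778861 on treated and 778919 on control arrays, and no spot was marked as saturated. The rat gene table lists 21 further genes and pseudogenes named after Ftl1 and 6 named after Fth1, so single probes are uncertain to the extent that they also bind these copies. Whether brightness or copies bear on the spread between probes was not tested.

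**Figure D2:**
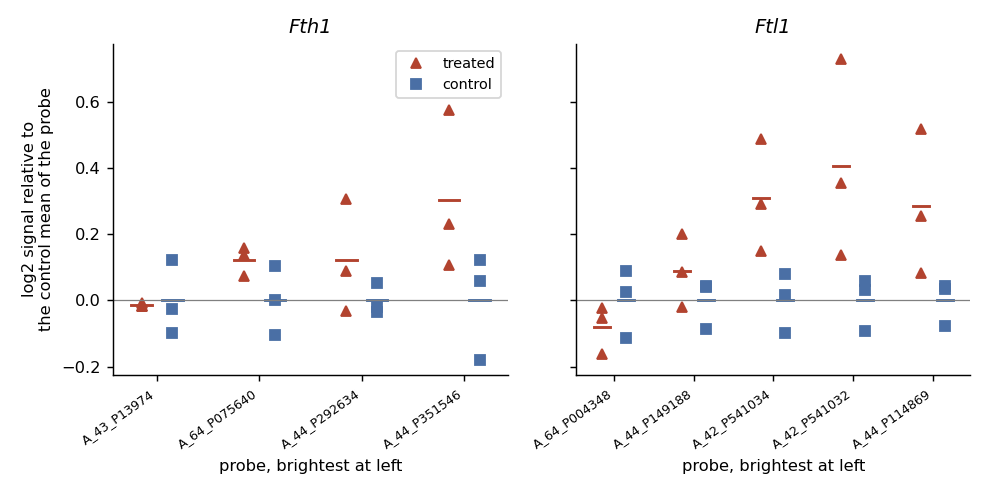
The 4 Fth1 and 5 Ftl1 probes, brightest at left; the vertical axis is the log2 signal of each array relative to the probe's control mean, triangles are treated and squares control animals, and short lines are group means. Treated animals lie within or near the control range at the brightest probes and above all controls at 3 dimmer Ftl1 probes.

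Markers of red blood cells and their precursors were read on the same arrays. Of 11 tested, 2 were called higher, 0 lower and 9 not called, where 3.03% of all genes were called higher. Treated animals lay above all controls for 10 of them, where the background was 14.1%. Their summed level was 1207, 1969 and 2156 in treated animals, against 1022, 773 and 802 in control animals. That sum is linear and mostly reads the globin genes Hba-a1, Hba-a3, Hbb and Hbb-b1. Their mean log2 levels in treated animals were 8.07 to 9.20, where the other markers reached at most 3.29. The haem synthesis enzyme of red cell precursors, Alas2, read 1.18, 2.54 and 2.83 in treated animals, against 0.78, 0.35 and 0.32 in control animals, and was not called (limma adjusted p = 0.090). Treated replicate 1 was the lowest treated animal for that sum, for Alas2 and for the 3 separated Ftl1 probes. It was also the lowest for the other Ftl1 probes, for Nqo1 and for both Ncoa4 probes. Being the lowest of 3 animals was not set against a background share, and the part of red cells in the ferritin values was not tested. In whole cortex, more cells of a type and more RNA per cell cannot be told apart. For macrophages, which recycle iron, limma called 0 of the 9 markers tested, with a single gene lower and 0 higher at unadjusted p under 0.05, and summed levels of 13.8 to 22.2 in treated and 15.2 to 24.2 in control animals, while Cd163, Marco and Vsig4 were too dim to test.

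Ncoa4 had the largest log2 fold change and the smallest p of the 10 genes at their brightest probes. It encodes the receptor that carries ferritin to the lysosome, where its iron is released. The log2 levels were 1.80, 2.15 and 2.05 in treated animals, against 1.42, 1.66 and 1.42 in control animals. All treated animals were above all controls, by a mean of 0.50 (1.41-fold, SE 0.12, 95% interval 0.20 to 0.79), with an unadjusted p of 0.0065 that did not pass adjustment (adjusted p = 0.075). The second probe read 0.068, 0.37 and 0.35 in treated animals, against -0.099, 0.11 and -0.21 in control animals, a log2 fold change of 0.33 (adjusted p = 0.181) with 1 treated animal inside the control range. Over the 15 other processing choices and left-out arrays the difference stayed between 0.41 and 0.60, and the adjusted p between 0.051 and 0.183.

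Upstream sequence was available for 7 of the 10 genes in 8 windows, from RefSeq on build GRCr8, each covering the 250 bases before a transcript start. Each was searched on both strands for TGACNNNGC (the core of the antioxidant response element that NRF2 binds), ACGTG (hypoxia response core), GGCGCC (BMP response core) and TTCNNNGAA (STAT core). Matches lay in 3 windows, those of Ncoa4, Tfrc and Hamp, and 5 windows held none. They are shown because Ncoa4 had the smallest p, Tfrc is the uptake receptor and Hamp the hormone gene read differently in 1 animal. Capitals mark the matches.
Ncoa4, chr16:7401541-7401790, plus strand: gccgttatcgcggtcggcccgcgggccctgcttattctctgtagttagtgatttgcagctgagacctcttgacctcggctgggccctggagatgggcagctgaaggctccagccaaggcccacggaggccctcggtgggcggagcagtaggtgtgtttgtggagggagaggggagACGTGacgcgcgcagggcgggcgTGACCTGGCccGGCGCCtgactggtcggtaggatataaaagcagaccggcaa
Tfrc, chr11:81690319-81690568, minus strand: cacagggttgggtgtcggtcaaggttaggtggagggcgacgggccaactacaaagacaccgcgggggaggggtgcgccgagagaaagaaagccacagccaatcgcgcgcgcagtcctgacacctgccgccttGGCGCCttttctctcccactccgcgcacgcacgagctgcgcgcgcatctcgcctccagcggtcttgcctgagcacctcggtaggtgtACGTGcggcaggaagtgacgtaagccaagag
Hamp, chr1:95300272-95300521, minus strand: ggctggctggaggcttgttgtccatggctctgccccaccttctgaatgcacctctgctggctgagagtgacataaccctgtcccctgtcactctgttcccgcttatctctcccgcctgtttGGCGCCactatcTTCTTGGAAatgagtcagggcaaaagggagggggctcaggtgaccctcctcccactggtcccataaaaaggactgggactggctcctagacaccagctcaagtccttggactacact
The Ncoa4 window held TGACNNNGC starting 52 bases before the start, ACGTG at 75 and GGCGCC at 41, none overlapping. The Tfrc window held ACGTG at 31 and GGCGCC at 118, and the Hamp window GGCGCC at 129 and TTCNNNGAA at 117. Among 33469 windows of all genes, TGACNNNGC occurred in 10.1%, ACGTG in 16.6%, GGCGCC in 8.69% and TTCNNNGAA in 7.67%, and a match is a description of letters only.

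Among uptake genes, Tfrc encodes the transferrin receptor. Its brightest probe read 1.67, 1.29 and 1.31 in treated animals, against 1.50, 1.86 and 1.33 in control animals. The groups overlapped, with a log2 fold change of -0.14 (95% interval -0.57 to 0.28, adjusted p = 0.639), and the other probes gave -0.093 and -0.12. The window printed above for Tfrc was thus not accompanied by a difference that passed. Slc11a2 encodes DMT1, the transporter of ferrous iron. It read 4.40, 4.13 and 4.45 in treated animals, against 4.63, 4.39 and 4.63 in control animals, a log2 fold change of -0.22 (95% interval -0.51 to 0.066, adjusted p = 0.300). Its other probes gave -0.19 and -0.052, so all 3 means were lower in treated animals and all groups overlapped.

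Slc40a1 encodes ferroportin, the iron exporter. Its brightest probe read 2.27, 2.35 and 2.51 in treated animals, against 2.20, 2.11 and 2.34 in control animals. The log2 fold change was 0.16 (95% interval -0.070 to 0.39, adjusted p = 0.344), with overlap. At A_44_P819401 it was 0.23 (adjusted p = 0.223), where the lowest treated and the highest control value both round to 1.73, and at A_43_P13162 it was 0.019.

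The regulators were read at few probes. Aco1, which encodes iron regulatory protein 1 and doubles as cytosolic aconitase, read 6.12, 6.22 and 5.79 in treated animals, against 6.22, 6.16 and 6.18 in control animals. Treated replicate 3 lay below all other arrays, and the log2 fold change was -0.14 (95% interval -0.44 to 0.16, adjusted p = 0.505). Ireb2, which encodes iron regulatory protein 2, read -3.13, -2.89 and -2.64 in treated animals, against -3.17, -2.44 and -3.11 in control animals, a log2 fold change of 0.021 (95% interval -0.55 to 0.59, adjusted p = 0.968). Hfe, an MHC class I-like protein that binds the transferrin receptor and takes part in hepcidin control, read -2.06, -2.05 and -2.42 in treated animals, against -2.58, -2.25 and -2.61 in control animals. Only treated replicate 3 reached into the control range, and the log2 fold change of 0.31 did not pass (95% interval -0.060 to 0.67, adjusted p = 0.266), while the dimmer probe gave -0.047.

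Hamp encodes hepcidin and is made mainly in the liver. Its log2 levels were -3.98, -3.55 and -4.06 in treated animals, against -4.49, -4.89 and -1.38 in control animals. Control replicate 3 lay 2.17 above the next array, so the difference over all arrays was -0.28 with a 95% interval from -2.59 to 2.03 (adjusted p = 0.882). Without that array the sign turned, with treated animals 1.77-fold higher (log2 fold change 0.82, SE 0.21, unadjusted p = 0.012, adjusted p = 0.140, limma on 3 against 2 arrays). All 3 treated animals were then above both remaining controls, a separation for which no background share was computed. Control replicate 3 was singled out after its value was seen. Hamp was read by 1 dim probe, with raw median signals of 81.5 to 124 on the other arrays. In the same fit the 4 hepatocyte markers had log2 fold changes of 0.51 (Ttr) to 1.06 (Serpina1), none of them called. Their limma unadjusted p was 0.0019 for Serpina1 (adjusted p = 0.085), below that of Hamp, and 0.104 to 0.161 for the others. Over all 12202 genes that fit called only 0 higher and 1 lower. Plasma protein transcripts were also highest in control replicate 3: Alb, which encodes albumin, read -0.58, -1.11 and -0.029 in treated animals, against -1.05, -1.49 and 3.89 in control animals. Among treated animals Alb was lowest in replicate 2, where Hamp was highest, while Apoa1 was lowest in replicate 1. Among control animals Alb and Hamp were both lowest in replicate 2 and highest in replicate 3. Hp and Hpx, the genes of haptoglobin and haemopexin, which scavenge haemoglobin and haem, were like Alb lowest in replicate 2 of each group and highest in control replicate 3. Hpx read -3.83, -4.25 and -3.63 in treated animals, against -4.37, -4.81 and -0.85 in control animals. The part of liver RNA in the Hamp value was not tested.

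**Figure D3:**
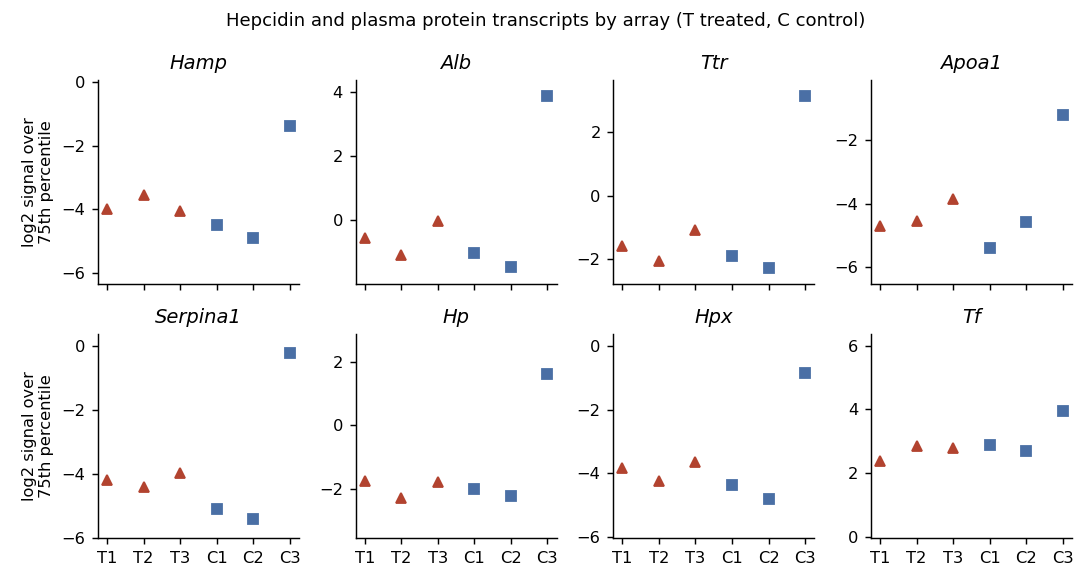
One panel per gene, with the log2 signal over the array's 75th percentile on the vertical axis and the 6 arrays along the horizontal axis (T1 to T3 treated, C1 to C3 control). All panels span the same height, and control replicate 3 is the highest array in each, by 2.17 for Hamp and 4.23 for Ttr.

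Of 55 other genes of iron handling, 48 were named on the array and 45 were bright enough to test. They covered haem uptake, mitochondrial iron, iron oxidation and reduction, and hepcidin signalling, and limma called 2 higher, 1 lower and left 42 not called, beside 4.36% of all genes called. At an unadjusted p under 0.05, 5 of the 45 were higher and 6 lower, where 25% of all genes had such a p in either direction. Their median log2 fold change was -0.11, beside -0.030 over all genes tested. Slc22a17, a receptor for the iron-carrying protein lipocalin 2, read 2.99, 3.09 and 3.04 in treated animals, against 3.31, 3.42 and 3.45 in control animals, and fell by 0.36 on the log2 scale (SE 0.063, adjusted p = 0.042). Slc48a1, a haem transporter of endosomes and lysosomes, read 1.31, 1.31 and 1.39 in treated animals, against 1.01, 0.95 and 1.07 in control animals, and rose 1.26-fold (adjusted p = 0.045). Slc25a37 encodes mitoferrin 1, the mitochondrial iron importer that red cell precursors use. It read -1.73, -1.73 and -1.67 in treated animals, against -2.05, -1.97 and -1.98 in control animals, and rose 1.22-fold (adjusted p = 0.0493). A second Slc25a37 probe rose by 0.20 on the log2 scale, with overlapping groups. The summed red cell level of all treated animals was above that of the controls, at 1207, 1969 and 2156 in treated replicates 1 to 3. The part of red cells in the Slc25a37 values was not tested.

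All 3 calls were lost when any 1 of the 6 arrays was left out, at adjusted p from 0.070 to 0.118 for Slc22a17, 0.098 to 0.122 for Slc48a1 and 0.110 to 0.133 for Slc25a37, in fits with fewer samples. Hmox1, the haem oxygenase that frees iron from haem, read -0.58, 2.81 and 0.67 in treated animals, against -1.63, -1.33 and -0.50 in control animals. Treated replicate 1 lay just below the highest control and the log2 fold change of 2.12 did not pass (SE 0.87, adjusted p = 0.206). For Tf, which encodes transferrin, the log2 fold change was -0.50 over all arrays (adjusted p = 0.415) and -0.12 without control replicate 3 (adjusted p = 0.714). The ferroxidase genes Heph and Cp had log2 fold changes of 0.15 and -0.042 (adjusted p = 0.534 and 0.907). Lrp2 and Cubn, the megalin and cubilin receptors of the proximal tubule that take up filtered transferrin, had -0.15 and -0.0070 (adjusted p = 0.200 and 0.977). Tfr2, the second transferrin receptor, was not well above background on any array.

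**Figure D4:**
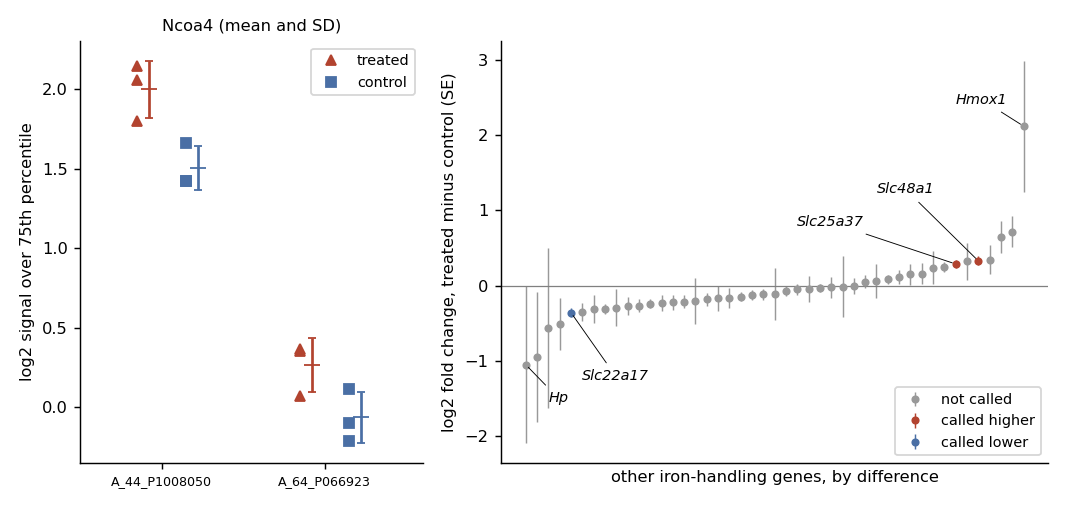
Left, the log2 signal of both Ncoa4 probes by animal (triangles treated, squares control) with mean and SD, n = 3 each. Right, the log2 fold change of treated minus control with its SE for the 45 other iron-handling genes tested, ordered by size; 2 called higher and 1 called lower are coloured, and the genes with the widest bars, such as Hmox1 and Hp, were not called.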

How the data were processed

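Total RNA of 6 renal cortices was labelled with Cy3 and hybridised to 1-colour arrays. Per the file headers, the spots were extracted by version 10.7.1.1 of Agilent Feature Extraction, which the submitters' processing notes give as 10.7, and the design is tied to build rn4. The deposited intensity used is a background-subtracted, detrended signal, taken as unscaled between arrays because its 75th percentile ran from 930 to 1002 on treated and 837 to 976 on control arrays. The authors' deposited value table, used as an alternative, is a linear ratio that equals that signal over the array's 75th percentile (median ratio 0.998), with column medians of 0.108 to 0.110 (treated) and 0.104 to 0.109 (control). No label records that step, so its scale and centring rest on this match.

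Here log2 of the signal minus the array's 75th percentile was used, with 1 to 3 outlier spots per array as missing. Accessions without versions were matched to RefSeq genes of GRCr8, which named 28206 probes. A probe was kept if well above background on all 3 arrays of a group, and the brightest kept probe stood for a gene. Groups were compared with limma 3.58.1 (R 4.3.3, lmFit and eBayes, prior degrees of freedom 1.77), adjusted by Benjamini-Hochberg over all genes, threshold 0.05, and the 95% intervals come from the same fit. The number of arrays limits the precision. The script was tested on simulated data.

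The members and gene lists were chosen with earlier results of these data known. The text names all members, the called genes of the other iron list, 8 fixed genes of it (of which Fbxl5 was not analysed here) and Nqo1. Alternatives were quantile and median scaling, a normexp background (offset 50, on median signals), other probe filters and probe choices, the value table, an intensity trend, the replicate number as a block and leaving out each array. The labels number animals 1 to 3 in both groups, and deviations from group means of same-numbered arrays correlated at -0.12, -0.11 and 0.089, so they were not treated as pairs.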

Additional observations from a re-analysis of the deposited data

How the results depend on the processing

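No member was called in any of the 153 values computed under the alternatives. For many of these values a call was hardly possible. With 1 array left out only 0 to 45 of all genes were called higher and 0 to 2 lower, and with the replicate block 0 and 0. Slc40a1, Slc11a2, Hfe, Aco1 and Ncoa4 kept their sign under every alternative. The sign of the log2 fold change turned for Fth1 with a normexp background (0.053) and the mean of a gene's probes (0.13), for Ftl1 likewise (0.024 and 0.20), for Ireb2 with quantile (-0.010) and median scaling (-0.013), for Cp with the mean of probes (0.11), and for Cubn with quantile scaling (0.082) and normexp (0.0057). Leaving out 1 array gave -0.062 to 0.048 for Fth1, -0.27 to 0.0050 for Tfrc, -0.11 to 0.25 for Ireb2, -0.93 to 0.82 for Hamp, -0.17 to 0.099 for Cp and -0.085 to 0.068 for Cubn. The members' median was -0.080 with median scaling, 0.039 with normexp, 0.075 with the mean of probes, 0.021 over every probe and -0.090 to -0.025 with 1 array left out. The median of the other iron-handling genes was -0.075 over every probe and -0.13 to -0.076 with 1 array left out. The median of all genes was -0.064 with median scaling, -0.053 without a filter and -0.035 to -0.026 with 1 array left out. Except where stated, the cause was not tested.

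Over all genes, 368 were called higher and 161 lower. These counts were 459 and 499 with normexp, 37 and 7 without a filter, 229 and 63 with the mean of probes, and 0 to 45 and 0 to 2 with 1 array left out, where 2460 to 2666 genes had an unadjusted p under 0.05. An intensity trend gave 395 lower, and 5035 of 21106 single probes had an unadjusted p under 0.05. With the replicate block, limma called 0 higher and 0 lower, with 2546 genes at an unadjusted p under 0.05, so the other iron-handling calls were also 0 and 0. For that list the calls, 2 higher and 1 lower, became 1 and 0 with quantile scaling, 0 higher with median scaling, 2 lower with normexp, 1 higher and 2 lower with an intensity trend, and 0 and 0 without a filter, with the mean of probes, over every probe and with any 1 array left out. Slide and scan could not be fitted as a block, because each held 1 group.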

Other observations

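Control replicate 3 held 36 genes whose log2 level lay over 2 above each of the other 5 arrays, against 0, 2 and 2 such genes on the treated arrays and 1 and 8 on control replicates 1 and 2. The 7 widest gaps were those of Ttr, which encodes the thyroid hormone carrier transthyretin (4.23), Mug1, a protease inhibitor of plasma (4.19), Mug1l1 (4.09), Rup2 (4.02), Alb (3.92), Fabp1, the liver fatty acid-binding protein (3.91), and Apoc1, an apolipoprotein (3.91). Itih3, Itih4 and Fgg, genes of plasma proteins, had gaps of 3.78, 3.66 and 3.22, among others of that size. These genes were singled out after their values were seen.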
